A study of Pinus pinaster with 36 samples.

Results

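The roots of maritime pine (Pinus pinaster, a conifer) seedlings fed ammonium were compared with the roots of seedlings fed nitrate, both kept in air with 400 ppm CO2. The comparison rests on 6 RNA-seq libraries, 3 with ammonium and 3 with nitrate, of the 36 libraries in the series. Results are given for transcripts that could be tied to the plant by their presence above ground. A transcript was kept where its mean level was at least 0.5 CPM (its counts over the library's total, times 1000000) over the 12 needle or over the 12 stem libraries, and at least 1 CPM over the 12 root libraries. This rule kept 61757 of the 224081 transcript identifiers in the count table, and these 61757 are called pine transcripts below. A further 5700 identifiers reached 1 CPM in roots but stayed under 0.5 CPM in both needles and stem, and 156624 lay under 1 CPM in roots. The organism of those others was not determined here. The rule used levels over all treatments together and not the difference between ammonium and nitrate.

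In both groups the plants were 2-month-old seedlings of the Segura-Alcaraz provenance, and 12 seedlings were pooled for each biological replicate. For 1 month, weekly watering with 40 mL of salt solution gave the ammonium group NH4Cl and the nitrate group KNO3, both at 8 mM. The salts differ in their other ion, so the nitrogen form cannot be told apart from chloride or potassium supply. Each pool also gave needles and stem, and 6 further groups had the same 3 organs and 2 nitrogen forms at 720 ppm CO2. Roots were taken whole as an organ, so fewer cells of a type and less RNA per cell cannot be told apart in any difference given here.

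Roots take up ammonium through AMT transporters and nitrate through NRT1/PTR (NPF) and NRT2 transporters. Nitrate must first be reduced by nitrate reductase and nitrite reductase, while ammonium enters amino acids directly through glutamine synthetase and glutamate synthase, and in conifers a large part of this assimilation takes place in the root. Nitrate is also a signal that switches on genes of its own uptake and reduction in many plants. No table at hand pairs the identifiers with gene names, so which of the transcripts described here belong to these pathways could not be told, and the label "roots" could not be checked against marker genes. For the same reason at most 2 transcripts that rose and 2 that fell are printed for a comparison, by identifier alone.

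The 6 libraries held between 76221102 and 88223556 counts. Pine transcripts took 94.9%, 95.3% and 95.1% of the counts in ammonium replicates 1, 2 and 3, against 94.0%, 94.3% and 93.7% in the nitrate replicates. The groups did not overlap, with the ammonium libraries above the nitrate ones and means of 95.1% ± 0.183 for ammonium and 94.0% ± 0.315 for nitrate (SD, n = 3 each). The difference of 1.09 percentage points gave p = 0.1 in a two-sided exact permutation test, which is the smallest p that 3 against 3 libraries allow (0.125 after Benjamini-Hochberg adjustment over 5 such measures). The 5700 transcripts at 1 CPM in roots but under 0.5 CPM above ground took 2.09% ± 0.0681 of the counts with ammonium and 3.16% ± 0.108 with nitrate (exact p = 0.1, adjusted 0.125). Over pine transcripts, log2 CPM of replicates correlated at 0.976 to 0.988 within the ammonium group and at 0.981 to 0.990 within the nitrate group, and replicate 1 had the lowest values in both groups. The median coefficient of variation between replicates was 12.3% with ammonium and 10.5% with nitrate.

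Ammonium and nitrate roots differed in 6903 of the 61757 pine transcripts, with 2930 higher and 3973 lower with ammonium. A transcript was called where its Benjamini-Hochberg adjusted p in edgeR's quasi-likelihood test fell under 0.05, with the adjustment made over all 156123 transcripts tested. Over those 156123 the test called 7.98%, of which 2.5% of the transcripts tested were higher and 5.47% lower, while among pine transcripts the shares were 11.2%, 4.74% and 6.43%. The 5700 transcripts under 0.5 CPM in needles and in stem gave 230 higher and 1433 lower, or 29.2% called. At an unadjusted p under 0.05 there were 17971 pine transcripts. In 6877 of the 6903 the 3 ammonium values did not overlap the 3 nitrate values; such separation held for 21864 pine transcripts in all (35.4%) and for 30% of all transcripts tested.

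Most of the called differences were modest. The median log2 fold change was 0.79 among the higher transcripts and -0.69 among the lower ones, against -0.014 over all pine transcripts. A change over 2-fold was reached by 902 of the higher and 968 of the lower transcripts, 1870 in all, and the same bar was passed by 1.16% and 3.38% of all transcripts tested, 4.55% in all. Over 4-fold there were 96 higher and 174 lower (0.403% and 2.33% of all transcripts tested), and over 16-fold 9 higher and 66 lower. For the over 16-fold changes the shares over all transcripts tested were 0.16% higher and 1.73% lower, which is 250 and 2703 transcripts. Another 691 pine transcripts differed more than 2-fold without passing the test. The largest fitted changes were 7.93 upward and 11.4 downward on the log2 scale. The count of calls depended on the libraries used. It was 3839, 4943 and 5233 without ammonium replicate 1, 2 and 3, and 4318, 3824 and 3485 without nitrate replicate 1, 2 and 3.

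**Figure D1:**
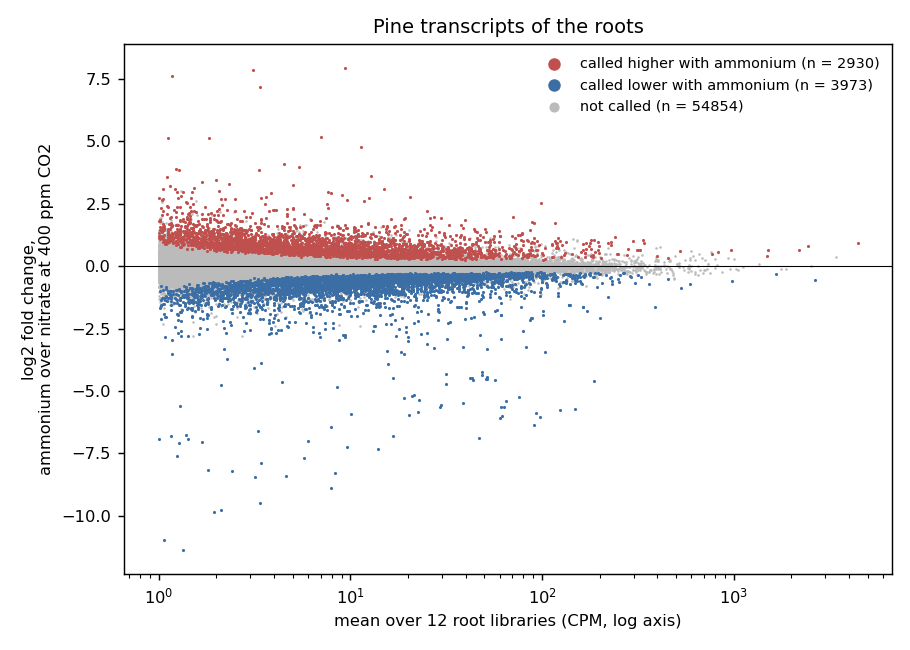
Each point is 1 of the 61757 pine transcripts; the horizontal axis is its mean level over the 12 root libraries (CPM, log axis) and the vertical axis the log2 fold change, ammonium over nitrate, at 400 ppm CO2. Red points were called higher with ammonium (2930), blue points lower (3973), grey points were not called, and a band of 66 blue points lies under -4.

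Neither group lacked many pine transcripts altogether, but the 1 CPM bar over 12 root libraries, with these 6 among them, largely fixed this. In both groups 58400 of the 61757 averaged at least 1 CPM, and among these 2619 were higher and 3756 lower with ammonium. Another 1864 reached 1 CPM only with ammonium, of which 311 were called higher and 9 of these over 16-fold. A further 1196 reached 1 CPM only with nitrate, of which 217 were called lower and 35 of these over 16-fold. Transcripts that reached 1 CPM in only 1 group could hardly be called in the opposite direction. The remaining 297 lay under 1 CPM in both 400 ppm groups and were kept by their level at 720 ppm. Of all transcripts called lower, 2 had 0 counts in the ammonium group, and of those called higher, 0 had 0 counts in the nitrate group.

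Pine transcripts were set in classes by where they were most abundant, comparing the mean over 12 root libraries with the higher of the needle and stem means. Of the 6826 shoot-leaning transcripts, which were more than 2-fold lower in roots, 704 (10.3%) were higher and 204 (2.99%) lower with ammonium. Of the 5612 root-leaning transcripts, more than 2-fold higher in roots, 381 (6.79%) were higher and 1034 (18.4%) lower with ammonium. Of the 49319 in between, 1845 (3.74%) were higher and 2735 (5.55%) lower. Shoot-leaning transcripts thus had more calls upward and the other classes more calls downward with ammonium, and their median log2 fold changes were 0.13 for shoot-leaning, -0.20 for root-leaning and -0.017 for the class in between (0.0078 when scaling was taken from pine transcripts alone). The same order of calls held at 720 ppm CO2, with 464 higher and 147 lower among shoot-leaning and 263 higher and 921 lower among root-leaning transcripts. The differences between classes were not tested.

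The classes also took different shares of the counts. Shoot-leaning transcripts took 6.37% ± 0.0483 of the counts in ammonium roots and 5.47% ± 0.0262 in nitrate roots (SD, n = 3 each; exact permutation p = 0.1, adjusted 0.125), and the groups did not overlap. Root-leaning transcripts took 11.0% ± 0.287 with ammonium and 11.5% ± 0.222 with nitrate, with overlapping groups (exact permutation p = 0.2, adjusted 0.2). The 50 most abundant pine transcripts together took 6.24% ± 0.165 with ammonium and 5.31% ± 0.171 with nitrate (exact permutation p = 0.1, adjusted 0.125). Of these 50, 8 were called higher and 4 lower, with log2 fold changes between -0.72 and 0.92.

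By level, 67.3% of the pine transcripts averaged 1 to 10 CPM in roots, and of these 41532 transcripts 1857 (4.47%) were higher and 1906 (4.59%) lower with ammonium. Of the 19037 at 10 to 100 CPM, 1002 (5.26%) were higher and 1945 (10.2%) lower, and of the 1188 at 100 CPM or more, 71 (5.98%) were higher and 122 (10.3%) lower. The surplus of lower calls thus lay in the upper 2 classes. In the lowest class the order turned round with scaling from pine transcripts alone (2088 higher and 1723 lower). It also did so with the 6 libraries alone (1761 and 1598), DESeq2's test (2843 and 2781) and no filter (1721 and 1707). The other fits kept more lower than higher calls there. By shoot organ, the 55367 transcripts at 0.5 CPM in both needles and stem had 2405 higher and 3453 lower. The 5721 in stem but not needles had 467 higher and 413 lower, an order that turned round without ammonium replicate 1 (281 and 309) or 3 (343 and 348), without nitrate replicate 1 (298 and 335) or 3 (241 and 272) and with the replicate block (511 and 518). The 669 in needles but not stem had 58 higher and 107 lower. At the edge of the rule, 3.82% were called among the 1648 transcripts just inside it at 1 to 1.1 CPM in roots and 3.63% among the 1847 just outside at 0.9 to 1 CPM; for the shoot bar the shares were 17.9% of 318 just inside (0.5 to 0.55 CPM) and 20.1% of 279 just outside (0.45 to 0.5 CPM).

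**Figure D2:**
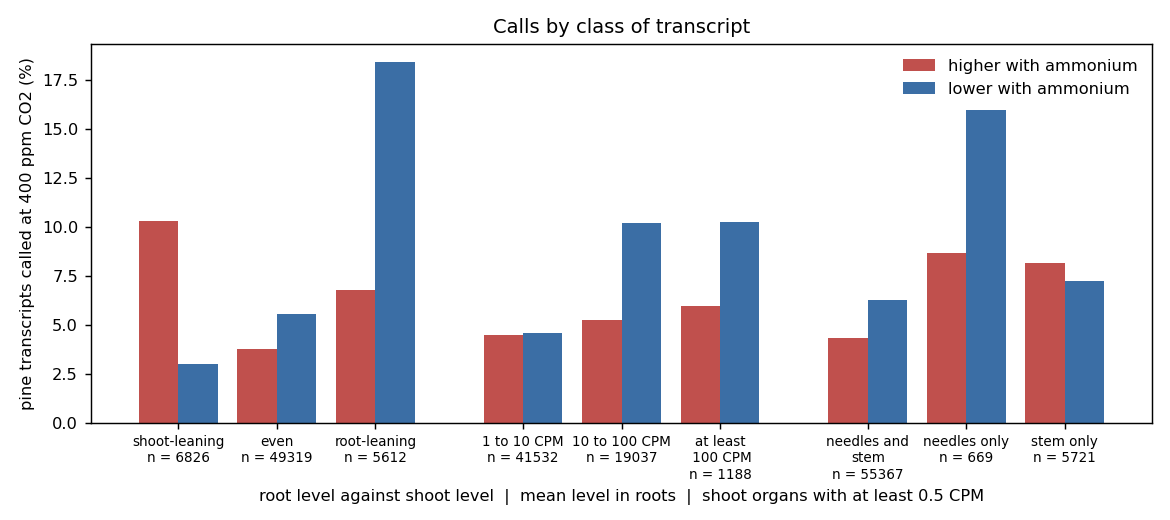
Bars give the percentage of pine transcripts in each class called higher (red) or lower (blue) with ammonium in roots at 400 ppm CO2; classes are set by root level against shoot level, by mean level in roots and by the shoot organs that reach 0.5 CPM, with the number of transcripts under each. The root-leaning class has 18.4% called lower and the shoot-leaning class 10.3% called higher.

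Single transcripts show what these changes looked like in each library. Their CPM by library use totals after the filter on low counts, scaled by TMM. PpCO2_20585 had the largest downward change among pine transcripts with a mean of at least 5 CPM. Its level was 0.0635, 0.045 and 0 CPM in the ammonium roots, against 17.2, 20.4 and 16.3 CPM in the nitrate roots. All 3 nitrate libraries lay far above all 3 ammonium libraries, which held 9 counts in all, against 4450 with nitrate. On the log2 scale the fold change was -8.89 with an SE of 0.58 (edgeR adjusted p = 1.02e-05). At 720 ppm it was 0.188, 0.0748 and 0 CPM with ammonium, against 14.2, 15.6 and 12.7 CPM with nitrate (log2 fold change -7.13, adjusted p = 1.44e-05). The shoot of the same pools showed the difference too: the stem held 0 counts in each ammonium library at 400 ppm, against 5.18, 10.7 and 9.51 CPM with nitrate, and the needles 0.0935, 0 and 0.285 CPM with ammonium, against 3.24, 4.25 and 5.48 CPM with nitrate. Both were called in edgeR's test (adjusted p = 0.000162 in stem, 0.00681 in needles). No ammonium group of needles or stem averaged 0.5 CPM, so the transcript met the membership rule through its nitrate libraries.

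PpCO2_167522 was the most abundant of the transcripts that fell over 2-fold. Ammonium roots held 96.5, 186 and 267 CPM of it, against 602, 664 and 430 CPM in nitrate roots. The groups did not overlap, although each spread widely. Ammonium over nitrate gave a log2 fold change of -1.63 with an SE of 0.34 (edgeR adjusted p = 0.0177), and at 720 ppm it was -1.65 (adjusted p = 0.0184). In 3 of 6 fits with 1 of the 6 libraries left out its adjusted p passed 0.05, namely 0.0654 without ammonium replicate 2, 0.061 without nitrate replicate 1 and 0.0649 without nitrate replicate 2.

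PpCO2_137599 had the largest upward change among pine transcripts with a mean of at least 5 CPM. Ammonium roots held 13.3, 34.5 and 24.4 CPM of it, against 0, 0.12 and 0.175 CPM in nitrate roots. The transcript was all but missing from the 3 nitrate libraries, with 24 counts in all, against 6063 with ammonium. The fitted log2 fold change of 7.93 had an SE of 1.44 (edgeR adjusted p = 0.0106). At 720 ppm the levels were 12.9, 8.64 and 6.73 CPM with ammonium, against 5.31, 0.0222 and 5.27 CPM with nitrate, and the change of 1.42 was not called (adjusted p = 0.521). There only nitrate replicate 2 was near 0. The call at 400 ppm was lost without nitrate replicate 2 or replicate 3, with adjusted p = 0.0582 and 0.0547, and with limma-voom (0.289).

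PpCO2_47400 was the most abundant of the transcripts that rose over 2-fold. Ammonium roots held 402, 456 and 671 CPM of it, against 292, 257 and 196 CPM in nitrate roots. The lowest ammonium library lay above the highest nitrate library. Its log2 fold change of 1.04 had an SE of 0.25 (edgeR adjusted p = 0.0285), with a change of 0.55 at 720 ppm that was not called (adjusted p = 0.266). The call at 400 ppm was lost in 5 of 6 fits with 1 library left out, with adjusted p between 0.056 and 0.122. It was kept without ammonium replicate 1.

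**Figure D3:**
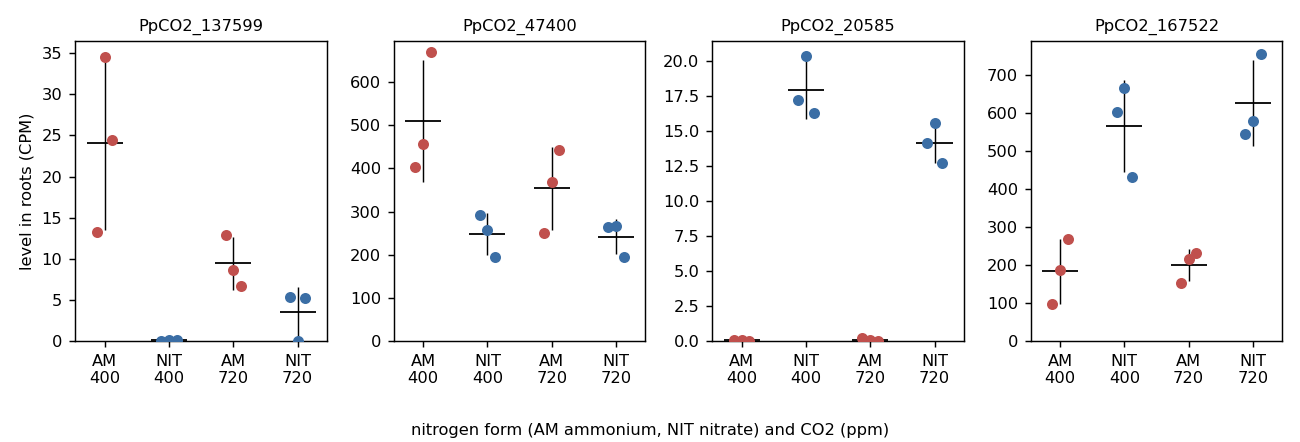
Level in roots (CPM) of the 4 transcripts named for the 400 ppm comparison; each point is 1 library, red with ammonium (AM) and blue with nitrate (NIT), at 400 and 720 ppm CO2, with the mean as a horizontal bar and the SD as a vertical bar (n = 3 each). The 2 groups at 400 ppm do not overlap in any panel, and the PpCO2_20585 level is near 0 in all 6 ammonium libraries.

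The 66 pine transcripts that were over 16-fold lower with ammonium made up the deepest falls in the roots. Their summed level in ammonium roots was 110, 134 and 99.7 CPM, against 4334, 4058 and 4068 CPM in nitrate roots. The set was chosen on this difference, so these sums are a description. Of the 66, 39 were root-leaning, 27 lay in between and 0 were shoot-leaning, and their mean levels ran from 1.01 to 187 CPM. The root libraries at 720 ppm are not fully independent of the choice, since the 1 CPM bar was set over all 12 root libraries and 35 of the 66 reached 1 CPM at 400 ppm only with nitrate; the sums there were 134, 132 and 132 CPM with ammonium, against 3886, 3754 and 3888 CPM with nitrate. All 66 were lower with ammonium there, and 65 were called by edgeR's test, where 4.09% of all transcripts tested were called lower; their median log2 fold change was -5.30. With 1 of the 6 libraries at 400 ppm left out, 61 to 65 pine transcripts were over 16-fold lower.

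The same transcripts were also lower above ground. In the stem at 400 ppm their summed level was 61.6, 66.8 and 71.5 CPM with ammonium, against 459, 654 and 914 CPM with nitrate, and 45 of the 66 were called lower in edgeR's stem fit. In the needles it was 80.8, 86.0 and 82.5 CPM with ammonium, against 374, 356 and 653 CPM with nitrate, and 30 of the 53 that passed the filter on low counts there were called lower. In no organ did the groups overlap, and 26 transcripts were called lower in all 3 organs. Over all transcripts tested, edgeR called 0.053% lower in stem and 0.0461% lower in needles. Needles and stem came from the same seedling pools as the roots, so they are not further replicates. Nor are they independent of the choice, since the 0.5 CPM bar was set over shoot libraries of both nitrogen forms. A transcript near 0 in the shoot with ammonium could pass it only through the nitrate libraries, and 21 of the 66 passed in stem alone.

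**Figure D4:**
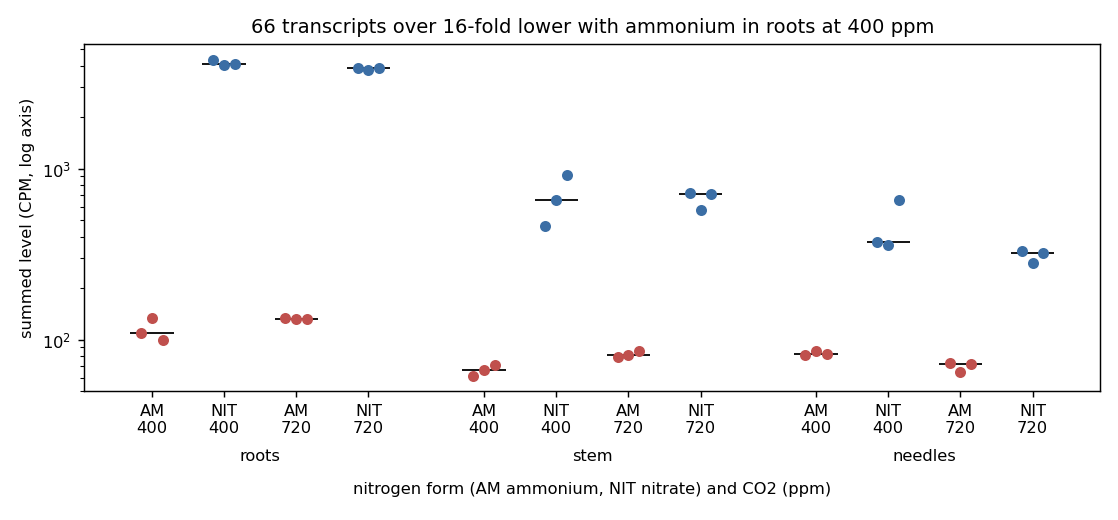
Summed level (CPM, log axis) of the 66 pine transcripts over 16-fold lower with ammonium in roots at 400 ppm; each point is 1 library, red with ammonium (AM) and blue with nitrate (NIT), and the bar is the group median. In roots the 3 ammonium libraries at 400 ppm sit between 99.7 and 134 CPM and the 3 nitrate libraries between 4058 and 4334 CPM, and the ammonium libraries also lie lower in stem and needles and at 720 ppm.

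The 9 transcripts over 16-fold higher with ammonium were a smaller set, and all 9 reached 1 CPM at 400 ppm only with ammonium. Their summed level was 61.9, 102 and 65.4 CPM in ammonium roots, against 1.51, 1.19 and 1.53 CPM in nitrate roots, again as a description of the choice. At 720 ppm the sums were 95.5, 74.7 and 80.1 CPM with ammonium, against 13.9, 3.37 and 13.5 CPM with nitrate. There 6 of the 9 were called higher, where 2.09% of all transcripts tested were. In needles 3 were called higher at 400 ppm, and in stem the 8 that were tested had a higher fitted level with ammonium without being called. Neither the roots at 720 ppm nor the shoot are fully independent of the choice. High ammonium libraries there could carry a transcript over the 1 CPM bar in roots or the 0.5 CPM bar in the shoot.

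Called transcripts often had neighbouring identifier numbers. The 2930 higher transcripts formed 2114 runs of directly following numbers, and 1288 of them (44.0%) lay in runs of 2 or more. The 3973 lower transcripts formed 2735 runs, with 1927 (48.5%) in runs of 2 or more. Of 44176 pairs of neighbouring pine transcripts, 2117 had both members called, and in 63 of these they moved in opposite directions. What neighbouring numbers share, such as a gene of origin, was not given in the sources used here, and reads of near-identical transcripts may have been split between identifiers, so the counts of transcripts need not be counts of genes. The 66 strongly lower transcripts lay in 25 such runs.

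The longest run among the higher transcripts held 21. Its summed level was 270, 273 and 185 CPM in ammonium roots, against 99.0, 127 and 121 CPM in nitrate roots, and 17 of the 21 were called higher at 720 ppm. The next held 16, summing to 158, 205 and 156 CPM with ammonium, against 69.8, 60.8 and 72.9 CPM with nitrate. All 16 were called at 720 ppm and 9 in needles, where this run reached 599 to 669 CPM with ammonium, against 327 to 389 CPM with nitrate. Among the lower transcripts the longest run held 14, with 84.1, 71.5 and 70.0 CPM in ammonium roots, against 213, 174 and 181 CPM in nitrate roots. A run of 10 had log2 fold changes between -9.49 and -3.30: it summed to 2.02, 1.87 and 1.20 CPM with ammonium, against 114, 112 and 87.6 CPM with nitrate, and 8 of the 10 were called lower in stem and 3 in needles. Its summed level in ammonium libraries at 400 ppm was at most 3.10 CPM in stem and 1.48 CPM in needles. The nitrate libraries could thus have largely carried its members over the 0.5 CPM shoot bar. Another run of 10 held more abundant transcripts, with 580, 650 and 558 CPM in ammonium roots, against 1898, 1737 and 1346 CPM in nitrate roots. All 10 were called lower in roots at 720 ppm, while their median log2 fold change at 400 ppm was -0.13 in needles and -0.0036 in stem. These runs were picked by their length among called transcripts, and the sums at 400 ppm describe that choice. Calls at 720 ppm and in the shoot are not fully independent either, since those libraries entered the membership rule.

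The 6 root libraries at 720 ppm CO2 gave the same contrast in other seedlings, although they entered the 1 CPM bar and the shared estimate of spread. There 4252 pine transcripts (6.89%) were called, 1751 higher and 2501 lower with ammonium, against 6.18% of all transcripts tested. Of the 2930 called higher at 400 ppm, 2825 (96.4%) had a positive log2 fold change at 720 ppm, and 1078 (36.8%) were called higher in edgeR's test. Of the 3973 called lower at 400 ppm, 3881 (97.7%) had a negative change, 1775 (44.7%) were called lower and 1 was called higher. Over all pine transcripts, 50.6% had a positive and 49.4% a negative change at 720 ppm. The 1078 are 61.6% of the 1751 called higher at 720 ppm, and the 1775 are 71.0% of the 2501 called lower. The median change at 720 ppm was 0.49 for the higher set and -0.46 for the lower set, smaller than the 0.79 and -0.69 at 400 ppm on which these sets were chosen. Among the changes over 2-fold at 400 ppm, 417 of 902 higher and 709 of 968 lower transcripts were called at 720 ppm. Without ammonium replicate 1, 2 or 3 the calls at 720 ppm numbered 3886, 2782 and 3171. Without nitrate replicate 1, 2 or 3 they numbered 2633, 2420 and 2796.

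**Figure D5:**
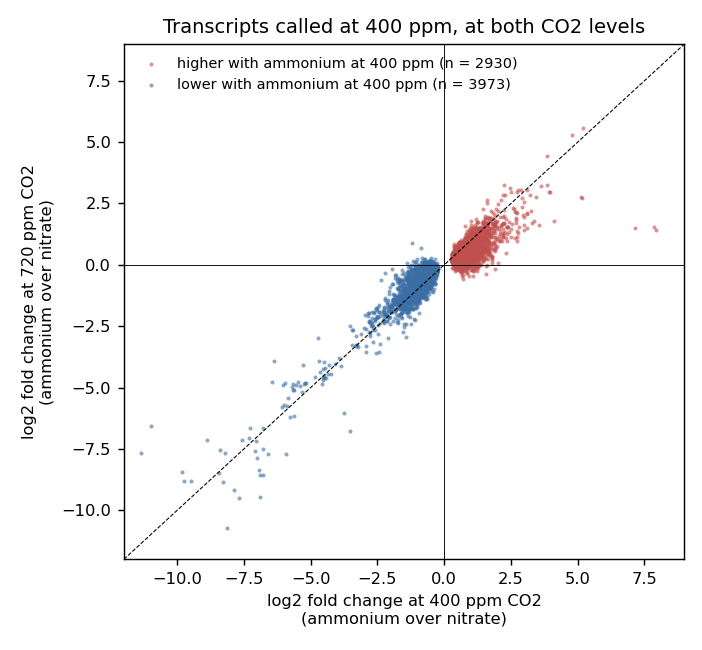
Each point is 1 pine transcript called at 400 ppm CO2; the horizontal axis is its log2 fold change (ammonium over nitrate) at 400 ppm and the vertical axis the same at 720 ppm, with red for the 2930 higher and blue for the 3973 lower at 400 ppm. The dashed line marks equal changes, and 96.4% of the red and 97.7% of the blue points have the same sign at both CO2 levels. Over all pine transcripts, 50.6% were positive and 49.4% negative at 720 ppm.

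The test of the difference itself, the effect of ammonium at 720 ppm minus that at 400 ppm, called 22 pine transcripts (0.0356%, against 0.462% of all transcripts tested), with 3446 at an unadjusted p under 0.05. For 4 of them the difference was positive and for 18 negative (0.386% and 0.0762% of all transcripts tested). Of the 18, 6 were higher with ammonium at 400 ppm, 2 were lower at both CO2 levels, and 10 were called lower only at 720 ppm. Of the 4, 3 were lower at both levels and 1 was lower at 400 ppm and higher at 720 ppm. On simulated counts with the same group sizes this test recovered 12% and 20% of 2-fold differences in 2 random draws. Of 4-fold differences it recovered 65% and 67%. The 400 ppm comparison recovered 44% and 46% of 2-fold and 91% and 87% of 4-fold changes. Most simulated 2-fold differences between CO2 levels were thus missed. Only 200 transcripts were changed in each draw. In the data 722 of all transcripts tested were called for this difference and 12456 for the 400 ppm comparison. The Benjamini-Hochberg adjustment was therefore stricter in the simulation, and its rates may understate recovery in the data. The 22 depended on single libraries: 14, 13, 9 and 6 were called without ammonium replicate 1 or 3 or nitrate replicate 2 or 3 at 400 ppm, and 35, 7 and 6 without ammonium replicate 1 or 2 or nitrate replicate 1 at 720 ppm. DESeq2's test called 176, and limma-voom called 0 with 3496 at an unadjusted p under 0.05.

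Among these 22, PpCO2_27717 was higher with ammonium at 400 ppm, with 18.3, 16.1 and 15.3 CPM against 6.54, 6.16 and 8.54 CPM with nitrate. At 720 ppm the ammonium roots held 7.26, 8.46 and 9.76 CPM and the nitrate roots 9.40, 11.5 and 9.46 CPM. The groups stood apart at 400 ppm and overlapped at 720 ppm, and the log2 difference was -1.48 (SE 0.21, edgeR adjusted p = 0.00332). PpCO2_178484 was lower with ammonium at both levels, with 3.05, 3.12 and 3.62 CPM against 232, 190 and 223 CPM with nitrate at 400 ppm. At 720 ppm it had 6.68, 5.30 and 5.17 CPM with ammonium, against 183, 184 and 152 CPM with nitrate. The log2 difference between the CO2 levels was 1.13 (SE 0.17, edgeR adjusted p = 0.00626). The fall was the deeper one at 400 ppm.

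The shoot of the same pools gave few calls for the same contrast at 400 ppm. Spread between replicates was larger there: the common biological coefficient of variation in edgeR's fits was 0.618 in needles and 0.782 in stem, against 0.427 in roots. Changes of a given size were thus harder to call, and fewer calls need not mean a weaker response. Needle ammonium replicate 2, needle nitrate replicates 1 and 2 and stem ammonium replicates 1 and 2 were classed as low in complexity. No complexity values are given here, so fits without them only show the effect of leaving these libraries out. In needles 107 pine transcripts were called of 61022 tested (0.175%, against 0.103% of all transcripts tested), 57 higher and 50 lower with ammonium, against 0.0572% and 0.0461% of all. In stem there were 120 of 61665 (0.195%, against 0.0879%), 47 higher and 73 lower, against 0.0349% and 0.053% of all. Of the 2930 transcripts called higher in roots, 34 were also called higher in needles and 37 in stem, and of the 3973 called lower in roots, 41 were called lower in needles and 69 in stem, with 1 called higher in needles. The median log2 fold change of the higher set was 0.11 in needles and 0.13 in stem, and that of the lower set 0.0063 in needles and -0.18 in stem. With 1 of the compared libraries left out, the needle count was 39 and 44 without ammonium replicate 1 or 2 and 54 and 71 without nitrate replicate 1 or 2, and in these 4 fits more transcripts were lower than higher. Without ammonium replicate 3 the needle count was 143 (97 higher and 46 lower). Without nitrate replicate 3 it was 104 (62 higher and 42 lower). The stem count was 78 and 327 without ammonium replicate 1 or 3, and 64 and 68 without nitrate replicate 2 or 3.

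Whether the effect of ammonium at 400 ppm differed between organs was tested directly. Roots and needles differed in 609 pine transcripts (0.986%, against 0.352% of all transcripts tested), of which 502 had the more negative change in roots and 107 the more positive one (0.288% and 0.0634% of all transcripts tested). Of these 609, 525 were also called in roots, 427 lower and 98 higher. With DESeq2 size factors in place of TMM scaling the count was 652, with 216 more positive and 436 more negative in roots. The median difference over all pine transcripts was -0.105 with TMM and -0.010 with DESeq2 size factors. The split between the directions thus shifted with the scaling, with most calls more negative in roots under both. Roots and stem differed in 149 (0.241%, against 0.0909%), 105 more negative and 44 more positive in roots (0.0586% and 0.0323% of all), and 148 of the 149 were also called in roots. The root and needle count was 262 without root ammonium replicate 1, 290 to 391 without any 1 of the nitrate root libraries, 396 and 367 without needle ammonium replicate 1 or 2, and 391 without needle nitrate replicate 1. The root and stem count was 91 without root ammonium replicate 1, 88 without root nitrate replicate 1 and 648 without stem ammonium replicate 3, where 385 were more positive and 263 more negative.

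PpCO2_22062, part of the run of 16 described above, changed more in roots than in needles. Ammonium roots held 9.12, 12.2 and 5.63 CPM of it, against 0.404, 0.228 and 0.1 CPM in nitrate roots. In needles the levels were 104, 120 and 95.3 CPM with ammonium, against 39.4, 52.4 and 40.9 CPM with nitrate. The groups stood apart in both organs, and the log2 fold change was 5.19 in roots and 1.26 in needles; their difference was 3.85 (SE 0.84, edgeR adjusted p = 0.0383). With the seedling pool as a replicate block, since the organs of a pool come from the same seedlings, the call was lost (difference 3.90, adjusted p = 0.0805). The 3 other transcripts that the naming rule gave for roots against needles were not called in roots at 400 ppm, their difference rested on needle levels near 0, and with the pool as a block they lost their call too.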

How the data were processed

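RNA of 36 samples (3 organs, 2 nitrogen forms, 2 CO2 levels, 3 replicates) was sequenced in 150 bp read pairs, per the labels' protocols. The authors deposited 1 table of raw counts with a row per transcript; all columns matched a sample by name. Per the submitters' processing notes bcl2fastq was used; the sources used here do not name the aligner, counter, assembly or treatment of multi-mapping reads or read pairs, and the labels' treatment text describes another root experiment, so groups follow titles and characteristics. Counts above 20 were more often even than odd (54.4% to 59.9% even in the 6 libraries), so counts need not be independent reads.

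The 12 root libraries were fitted together on the whole table with edgeR 4.0.16 in R 4.3.3 (filterByExpr with a minimum count of 10, TMM scaling, robust quasi-likelihood F-test, two-sided, 1 mean per group), with Benjamini-Hochberg adjustment over all 156123 transcripts tested. All 61757 pine transcripts passed the filter. Needles and stem were fitted alone, and differences between organs over all 36 libraries. CPM in the membership rule and in means over 12 libraries are counts divided by the library total. Levels of single transcripts by library, replicate correlations, coefficients of variation and the overlap of groups used edgeR's CPM instead. There the divisor is the library total left after the filter, multiplied by the library's TMM factor. A label calls the 3 libraries of a group biological replicates; p-values measure the spread between these pools, and no 2 replicates agreed within counting noise (chi-square per degree of freedom at least 12.0). Named transcripts were, in each direction, the largest change at a mean of at least 5 CPM and the most abundant with a change over 2-fold, with groups apart; for differences between CO2 levels or organs, the 2 largest differences at 5 CPM. The transcripts, classes and tests were chosen with earlier results of these data known. On simulated counts the 400 ppm test recovered 44% and 46% of 2-fold and 91% and 87% of 4-fold changes in 2 random draws (100 changes of each size). Far fewer transcripts were changed there than were called in the data, so the adjustment was stricter and these rates may understate recovery. Alternatives were DESeq2 1.42.0, limma 3.58.1 (voom), other scaling, filters, thresholds, membership rules, blocks and left-out libraries. The precision of levels near 0 covers counting error only.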

Additional observations from a re-analysis of the deposited data

Results flagged for a closer look

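The effect of ammonium differed between CO2 levels in 22 pine transcripts of the roots, between roots and needles in 609 and between roots and stem in 149, by edgeR's test of the difference. Among the transcripts named for the CO2 comparison, the log2 difference (720 minus 400 ppm) was 1.23 for PpCO2_14431 (SE 0.22, edgeR adjusted p = 0.0205), where ammonium roots at 400 ppm held 0.711, 1.15 and 1.14 CPM, against 38.7, 38.0 and 41.3 CPM in nitrate roots. It was 1.13 for PpCO2_178484 and -1.48 for PpCO2_27717. For PpCO2_115341 it was -1.36 (SE 0.26, edgeR adjusted p = 0.0342), with log2 fold changes of -0.39 at 400 ppm and -1.76 at 720 ppm.

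Between roots and needles at 400 ppm the log2 difference was 3.85 for PpCO2_22062 and 4.94 for PpCO2_145908 (edgeR adjusted p = 0.0205). For PpCO2_145908 the 3 ammonium needle libraries held 2, 0 and 0 counts and the nitrate ones 21, 30 and 5, so the size of the difference depends on the prior count: it was 7.94 without needle ammonium replicate 1, and 2.69 with edgeR adjusted p = 0.484 without the low-complexity libraries. The difference was -9.03 for PpCO2_42111 (edgeR adjusted p = 0.0198) and -8.83 for PpCO2_100919 (edgeR adjusted p = 0.0275). Both had 0 counts in all 3 nitrate needle libraries, so their fitted sizes depend on the prior count too, while PpCO2_42111 had 17.0, 11.9 and 14.2 CPM in ammonium roots, against 9.32, 14.3 and 13.4 CPM in nitrate roots. With the seedling pool as a replicate block all 4 lost their call, with edgeR adjusted p = 0.0805 for PpCO2_22062, 0.0636 for PpCO2_145908, 0.0855 for PpCO2_42111 and 0.0527 for PpCO2_100919.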

How the results depend on the processing

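The number of pine transcripts called in roots at 400 ppm (6903) was 2668 at an adjusted p under 0.01 and 1870 with a fold change over 2; it stayed between 5713 and 10201 with DESeq2's test, limma-voom, DESeq2 size factors, scaling from pine transcripts alone (6976, 3370 higher and 3606 lower), no filter on low counts, the 6 libraries alone and stricter membership rules, with more lower than higher calls each time. At 720 ppm (4252) it was 6505 with DESeq2's test, 1886 at 0.01 and 1280 over 2-fold. The difference between CO2 levels (22) gave 176 with DESeq2's test, 3 at 0.01 and 0 with limma-voom (3496 at an unadjusted p under 0.05). Without the filter on low counts the needles gave 203, and without its low-complexity libraries the stem gave 64. With 1 library left out the counts ran from 3485 to 5233 for roots at 400 ppm, 2420 to 3886 at 720 ppm, 6 to 35 for the difference between CO2 levels, 39 to 143 in needles, 64 to 327 in stem, 262 to 763 for roots against needles and 88 to 648 for roots against stem; such fits have fewer libraries. The 66 transcripts over 16-fold lower numbered 57 to 66 in 13 other fits, and 61 to 65 with 1 library left out. The share of counts held by pine transcripts differed by 0.939 to 1.25 points with 1 library left out.

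Replicate numbers are shared by the groups, but same-numbered root libraries at 400 ppm deviated together at r = 0.271, 0.111 and 0.0859, and ammonium replicates 2 and 3 correlated best with nitrate replicates 3 and 2, so the numbers were not taken as pairs. At 720 ppm same-numbered root libraries deviated together at r = 0.310, 0.0451 and 0.128, and replicate 1 was highest at both CO2 levels. With the number as a replicate block, calls were 7666 at 400 ppm (6399 of the 6903 among them), 4773 at 720 ppm and 31 for the difference between them. Organs of a pool do share seedlings; with the pool as a replicate block, roots against needles gave 706 calls and roots against stem 178 (81 more positive and 97 more negative in roots), while the 4 transcripts named for roots against needles lost their calls. No named transcript's change reversed under the alternatives run. Among them, PpCO2_20585 kept its call in all 13 alternatives (highest edgeR, DESeq2 or limma adjusted p 0.00111) and PpCO2_47400 lost it in 7, among them no filter on low counts (0.0788) and the replicate block (0.0547). Of 18 alternatives, PpCO2_14431 lost its call in 6, PpCO2_115341 in 10, and PpCO2_178484 and PpCO2_27717 with limma-voom (0.213 and 0.138). Of 16, PpCO2_22062 lost it in 12, PpCO2_100919 in 11, PpCO2_145908 in 6 and PpCO2_42111 in 4. Depth limits the precision of low transcripts: the median coefficient of variation between ammonium replicates was 12.3% over all pine transcripts and 8.42% among those at 10 CPM or more.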

Other observations

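PpCO2_137599, the transcript with the largest upward change in roots, had the same pattern by seedling pool in every organ. At 400 ppm it reached 3.91, 15.9 and 11.4 CPM in ammonium needles, against 0, 0 and 0.0484 CPM in nitrate needles, and 11.1, 26.2 and 19.2 CPM in ammonium stem, against 0.0509, 0 and 0.0699 CPM in nitrate stem. At 720 ppm the nitrate pools 1, 2 and 3 held 4.16, 0 and 3.49 CPM in needles, 7.94, 0.127 and 8.88 CPM in stem and 5.31, 0.0222 and 5.27 CPM in roots. Pool 2 was thus near 0 in all 3 organs, while the 3 ammonium pools at 720 ppm held 3.94 to 4.60 CPM in needles, 6.84 to 9.47 CPM in stem and 6.73 to 12.9 CPM in roots. What sets the pools apart was not tested.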
